A study of Mus musculus with 15 samples.

Results

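Chronic T3 against baseline B sets mouse liver after repeated injections of thyroid hormone beside liver of a baseline group. The comparison holds 6 of the 15 bead arrays of the series, the 3 labelled chronic T3 and the 3 labelled baseline B. It is described across the 8976 genes whose probe was detected, from the array signals before normalization. T3 (liothyronine) is the active thyroid hormone. All mice were C57BL/6 males of 8 weeks, no genotype is named, and food and water were freely available on a 12 h light and dark cycle. Mice of the chronic T3 group received 20 µg of T3 per 100 g of body weight by intraperitoneal injection on each of 14 days and were killed 6 h after the last dose. The animal experiments were run as 2 subsets with a baseline each, and the series sets chronic T3 against baseline B, for which no injection is named. Injections without T3 are named for no group, so effects of the hormone and of 14 daily injections cannot be told apart. Nothing read here says how many animals an array stands for, so that errors measure the spread between arrays. For comparison, acute T3 was read 6 h after 1 injection against its own baseline A, and T3 withdrawal 10 days after the last of 14 injections.

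Thyroid hormone acts mainly through nuclear receptors that sit on DNA as partners of the retinoid X receptors and switch genes on or off when T3 binds. In hepatocytes, where the beta receptor prevails, T3 is known to raise metabolic rate, to promote cholesterol synthesis and its conversion to bile acids, and to act on both the making and the burning of fat. The liver also makes the plasma proteins that carry the hormone and the deiodinase, sulfotransferase and glucuronosyltransferase enzymes that convert or clear it.

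The arrays differed in brightness. Mean signals were 649, 438 and 435 on chronic T3 replicates 1, 2 and 3 and 525, 610 and 633 on baseline B, and 12328 to 14624 probes were detected in the chronic T3 group against 11049 to 12998 in baseline B. The first principal component of all 15 arrays held 31.8% of the variance, with the chronic T3 arrays at 38.69 to 45.42 and the others at -18.26 to 0.09. The 14 hepatocyte markers were measured in full, with a summed signal of 359000 to 365000 per array in baseline B and 341000 to 357000 after chronic T3. Their mean log2 signal was 13.03 to 13.19 per array in baseline B and 12.75 to 12.95 after chronic T3. None of the 14 was called higher and 3 were called lower (Alb, Apoh and Fgb), with the Fgb probe not well above background in either group and not called without baseline B replicate 3 (adjusted p = 0.0688). The Alb probe was far dimmer than that of Ttr, as given below. The 3 genes given as marks of the comparison, Cyp17a1, Serpina7 and Folr2, all passed the test and are described with their groups. They were chosen with earlier results of these data known, so that passing the test is no independent support. In the chronic T3 group 144 genes spanned over 2 log2 units between the 3 arrays, and replicate 1 was the array farthest from the middle one for 88 of them. In baseline B 31 genes spanned as much. Each value below is a normalized log2 signal of the gene's brightest probe, or a difference of group means on that scale, from 3 arrays in each group. The ± is a moderated SE with the spread pooled over all 15 arrays, and not the spread of the groups compared alone. Fitted on the 6 arrays compared alone, 898 genes were called, against 2052 in the main fit. Arrays are named by their replicate number, as chronic array 1 to 3 and baseline array 1 to 3, and are left out 1 at a time.

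After 14 doses, 1111 genes were called higher and 941 lower (limma's moderated test, adjusted p under 0.05 by Benjamini-Hochberg over 8976 genes). That is 22.9% of the genes tested, 12.4% higher and 10.5% lower, and it is the background for every count of called genes below. The 3 arrays of each group did not overlap for 35.3% of all genes and for 1968 of the 2052 called. Most changes were moderate. The median size among called genes was 0.80 on the log2 scale, 433 rises and 296 falls reached 2-fold, 84 rises and 62 falls reached 4-fold, and 550 called genes were under 1.5-fold. Of the genes called higher, 190 were not well above background on any baseline B array. Of those called lower, 67 were not well above background on any chronic T3 array. For such genes a fold is a lower bound, taken against the mean over the dim group's arrays of the lowest detected signal or the probe's own signal, whichever was higher. A gene well above background on only some arrays of its low group is given a lower bound in the same way. Among genes named below this concerns Ttbk1 (another probe alone), Acnat2, Akr1c18, Mcm5, Pfkfb4, Slc51b and Spink1 (1 of 3 arrays) and Fgf21, Hmox1, Marco, Mcm6, Nupr1, Pnpla3, Ptgis, Rarb, Rrm2, Siglec1 and Tff3 (2 of 3 arrays) in baseline B and Etnppl, Fos, Gclc, Hsd17b6, Ppara, Ppp1r3g and Serpina7 (1 of 3 arrays) and Cxcl1, Cyp4a12b, Pklr, Pparg and Txnrd1 (2 of 3 arrays) after chronic T3. Log2 differences are as fitted and are no bounds. 7 called genes were not well above background in either group. A list below is described by its counts and its median, beside a median of 0.0252 over all genes. The lists were written with earlier results of these data known, so their counts are descriptions and no independent support. Smaller shifts of a list's count with 1 array left out, of up to 1.5-fold, are mostly not given.

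**Figure D1:**
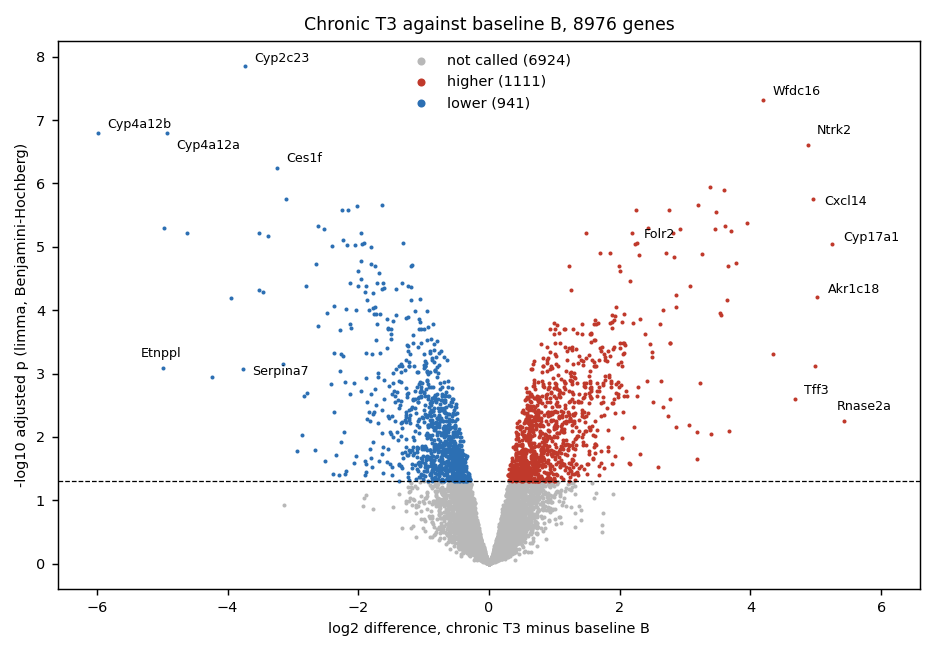
Each point is 1 of 8976 genes, with the fitted log2 difference of chronic T3 minus baseline B on the x axis and the negative log10 of the adjusted p on the y axis; the dashed line is an adjusted p of 0.05. The 1111 genes called higher (red) reach 5.43 and the 941 called lower (blue) reach -5.98.

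The 20 largest rises and falls are described among genes with no overlap of arrays, leaving out predicted genes. The rises included enzymes that act on steroids. Cyp17a1, the steroid 17-alpha-hydroxylase, read 7.04, 8.16 and 7.41 in baseline B and 13.28, 12.50 and 12.58 after chronic T3 (adjusted p = 9.17e-06). Akr1c18, which inactivates progesterone by reducing its 20-keto group, read 6.29, 5.19 and 5.28 in baseline B and 10.95, 10.66 and 10.19 after chronic T3 (at least 17.5-fold higher, adjusted p = 6.17e-05). Both genes were high on all 3 chronic T3 arrays, which stood clear of baseline B. Sult2a2, a sulfotransferase of hydroxysteroids, read 4.53, 4.78 and 4.59 in baseline B and 12.34, 8.79 and 7.73 after chronic T3 (at least 8.99-fold higher, adjusted p = 0.000761). Its 3 chronic T3 arrays spread widely, with replicate 1 highest. Rnase2a, a ribonuclease of the eosinophil-associated family, went the other way among replicates. It read 4.75, 5.17 and 4.91 in baseline B and 6.24, 12.38 and 12.51 after chronic T3 (at least 15.2-fold higher, adjusted p = 0.00567). Replicate 1 was thus low in Rnase2a and high in Sult2a2. With 1 array omitted, the fitted log2 difference changed for Sult2a2 (3.63 without chronic array 1 and 5.93 without chronic array 3) and Rnase2a (7.50 without chronic array 1, 4.43 without chronic array 2 and 4.37 without chronic array 3).

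Signalling and secreted proteins made up a further group of the largest rises. Ntrk2, the receptor of brain-derived neurotrophic factor, read 5.53, 5.03 and 6.29 in baseline B and 10.07, 10.90 and 10.52 after chronic T3 (at least 16.6-fold higher, adjusted p = 2.48e-07). Cxcl14, a chemokine, read 5.53, 5.0 and 4.73 in baseline B and 9.79, 10.25 and 10.11 after chronic T3 (at least 12.1-fold higher). Tff3, a trefoil peptide best known from mucus-secreting cells, read 5.36, 8.36 and 8.12 in baseline B and 12.23, 11.96 and 11.71 after chronic T3 (at least 21.1-fold higher, adjusted p = 0.00253). These genes were high on each chronic T3 array, while baseline B replicate 1 was low in Tff3. Wfdc16, a gene of the whey acidic protein family, read 4.98, 4.72 and 5.14 in baseline B and 8.87, 9.63 and 8.92 after chronic T3, and at an adjusted p of 4.82e-08 had the smallest of any gene called higher. Fndc5, the precursor of irisin, read 5.01, 4.91 and 5.07 in baseline B and 7.67, 9.42 and 8.88 after chronic T3 (at least 4.61-fold higher). Nt5e (CD73), which makes adenosine from extracellular AMP, read 7.95, 7.48 and 7.72 in baseline B and 11.72, 10.95 and 10.88 after chronic T3 (11.1-fold higher). Ptgis, the prostacyclin synthase, read 6.28, 6.95 and 6.45 in baseline B and 10.09, 10.35 and 9.61 after chronic T3 (at least 9.96-fold higher). In each of these genes the groups did not overlap. The log2 difference depended on single arrays for Tff3 (3.73 without baseline array 1).

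Genes of lipid and sugar handling were the third group. Pnpla3, a lipid droplet protein that responds to feeding, read 6.48, 6.67 and 5.0 in baseline B and 9.93, 11.10 and 10.16 after chronic T3 (at least 13.2-fold higher, adjusted p = 0.000487). Pfkfb4, an enzyme that sets the level of fructose 2,6-bisphosphate, read 5.90, 6.42 and 5.47 in baseline B and 9.01, 10.70 and 9.41 after chronic T3 (at least 9.19-fold higher). Acnat2, an N-acyltransferase that joins acyl-CoA to amino acids, read 6.21, 6.75 and 6.58 in baseline B and 9.96, 10.02 and 10.39 after chronic T3 (at least 11.4-fold higher). Fabp12, of the fatty acid-binding protein family, read 4.68, 4.61 and 4.89 in baseline B and 7.99, 8.28 and 8.70 after chronic T3 (at least 3.66-fold higher). Pnpla3 and Pfkfb4 were highest on replicate 2, and no chronic T3 array of these genes fell within baseline B. The other 5 of the 20 largest rises were Cep126 (centrosome), Ttbk1 (a tau and tubulin kinase), Kcnk1 (a potassium channel), Mmd2 and Sspo. Kcnk1 read 5.17, 5.21 and 5.59 in baseline B and 6.27, 9.97 and 10.75 after chronic T3 (at least 5.85-fold higher), so that its replicate 1 stood near baseline B. Sspo read 4.73, 4.80 and 4.80 in baseline B and 6.98, 9.44 and 8.58 after chronic T3 (at least 3.69-fold higher), also lowest on replicate 1. Leaving out 1 array moved the fitted log2 difference of Kcnk1 (5.04 without chronic array 1 and 2.80 without chronic array 3) and Sspo (4.23 without chronic array 1).

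**Figure D2:**
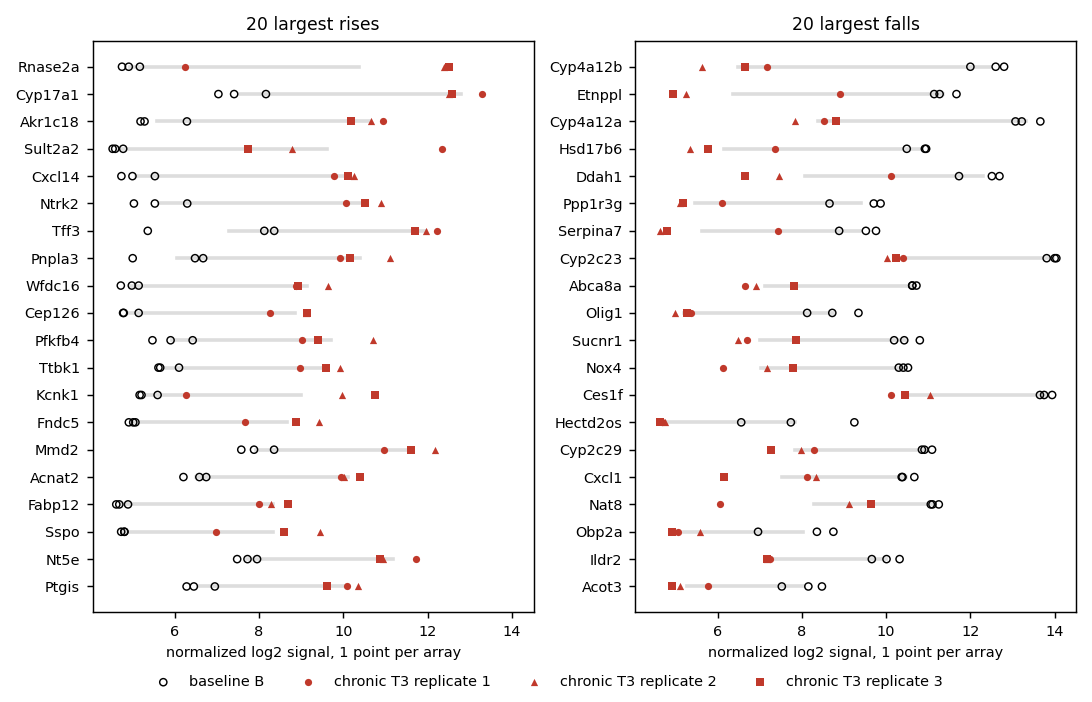
Normalized log2 signal (x axis) of the 20 largest rises and 20 largest falls (y axis), with open circles for the 3 baseline B arrays, red circles, triangles and squares for chronic T3 replicates 1, 2 and 3, and a grey bar joining the group means. Replicate 1 stands apart from replicates 2 and 3 for Rnase2a, Kcnk1, Sult2a2, Etnppl, Ddah1, Serpina7 and Nat8.

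The largest falls included many oxidative enzymes. Cyp4a12b and Cyp4a12a, near-identical male-biased fatty acid hydroxylases whose probes may read each other's transcripts, read 12.60, 12 and 12.80 in baseline B and 7.18, 5.63 and 6.65 after chronic T3 for Cyp4a12b and 13.22, 13.07 and 13.66 in baseline B and 8.53, 7.83 and 8.82 after chronic T3 for Cyp4a12a (adjusted p = 1.6e-07 for either). Both were far below baseline B on every chronic T3 array. Hsd17b6, which oxidizes androgen metabolites, read 10.92, 10.49 and 10.95 in baseline B and 7.36, 5.35 and 5.76 after chronic T3 (at least 17.7-fold lower, adjusted p = 5.99e-06). Cyp2c23, an epoxygenase of arachidonic acid, read 14.04, 13.81 and 14 in baseline B and 10.40, 10.01 and 10.23 after chronic T3 (13.3-fold lower). At an adjusted p of 1.38e-08 it had the smallest of the whole comparison, with replicates within 0.4 log2 units in each group. Nox4, an NADPH oxidase, read 10.41, 10.30 and 10.52 in baseline B and 6.12, 7.16 and 7.80 after chronic T3 (10.4-fold lower). Ces1f, a carboxylesterase, read 13.94, 13.75 and 13.65 in baseline B and 10.11, 11.03 and 10.45 after chronic T3 (9.48-fold lower). Cyp2c29 read 10.91, 10.85 and 11.09 in baseline B and 8.29, 7.99 and 7.27 after chronic T3 (8.6-fold lower). No array of any of these genes lay within the other group. With 1 array omitted, the fitted log2 difference changed for Hsd17b6 (-5.23 without chronic array 1).

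Other large falls concerned transport, signalling and the breakdown of small molecules. Etnppl, which breaks down phosphoethanolamine, read 11.67, 11.14 and 11.27 in baseline B and 8.91, 5.24 and 4.95 after chronic T3 (at least 18.4-fold lower, adjusted p = 0.00081). Ddah1, which clears dimethylarginine, read 12.69, 11.73 and 12.51 in baseline B and 10.11, 7.47 and 6.66 after chronic T3 (18.8-fold lower, adjusted p = 0.00115). In both, replicate 1 fell less than replicates 2 and 3. Sucnr1, the receptor of succinate, read 10.80, 10.19 and 10.43 in baseline B and 6.71, 6.5 and 7.85 after chronic T3 (11-fold lower). Abca8a, an ABC transporter, read 10.62, 10.72 and 10.62 in baseline B and 6.66, 6.90 and 7.82 after chronic T3 (11.5-fold lower). Ildr2, an immunoglobulin-like receptor, read 10.01, 9.66 and 10.32 in baseline B and 7.24, 7.17 and 7.17 after chronic T3 (6.98-fold lower). Olig1, a transcription factor known from oligodendrocytes, read 9.34, 8.13 and 8.72 in baseline B and 5.38, 4.99 and 5.27 after chronic T3 (at least 6.05-fold lower). Obp2a, of the odorant-binding lipocalins, read 8.36, 6.96 and 8.75 in baseline B and 5.07, 5.59 and 4.93 after chronic T3 (at least 3.70-fold lower). Nat8, an N-acetyltransferase, was lowest on replicate 1, with 11.06, 11.25 and 11.10 in baseline B and 6.06, 9.13 and 9.65 after chronic T3 (7.24-fold lower, adjusted p = 0.00932). The chemokine gene Cxcl1 read 10.37, 10.39 and 10.67 in baseline B and 8.11, 8.34 and 6.16 after chronic T3 (adjusted p = 0.0168). The rest of the 20 largest falls were Ppp1r3g, Serpina7 and Acot3, described with their pathways, and Hectd2os. Cxcl1 was not called when chronic array 3 or baseline array 3 were omitted (adjusted p 0.0536 to 0.0583). The log2 difference depended on single arrays for Etnppl (-6.26 without chronic array 1 and -4.28 without chronic array 3), Ddah1 (-5.25 without chronic array 1 and -3.52 without chronic array 3), Nat8 (-1.75 without chronic array 1 and -3.54 without chronic array 3), Cxcl1 (-2.25 without chronic array 3) and Hectd2os (-2.46 without baseline array 1 and -3.80 without baseline array 2).

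Genes that carry and convert the hormone moved in both directions. Of 17 measured, 3 were called higher and 4 lower (2 without baseline arrays 1, 2 or 3). Serpina7, the gene of thyroxine-binding globulin, read 9.76, 9.52 and 8.89 in baseline B and 7.44, 4.62 and 4.80 after chronic T3 (adjusted p = 0.00086). Of the other carriers, Alb read 9.23, 9.16 and 9.32 in baseline B and 7.90, 8.01 and 7.51 after chronic T3 (2.69-fold lower, adjusted p = 4.59e-05), and Ttr, the gene of transthyretin, read 15.42, 15.32 and 15.23 in baseline B and 15.27, 15.42 and 15.47 after chronic T3 and was not called. The Alb probe was thus far dimmer than the Ttr probe, and what share of Alb transcripts it reads was not tested. Dio1, the type 1 deiodinase, which can make T3 and can also break it down, read 11.62, 11.87 and 11.84 in baseline B and 13.05, 13.35 and 13.55 after chronic T3 (2.91-fold higher, adjusted p = 0.00171). Sult1d1, a phenol sulfotransferase, read 10.88, 11.61 and 11.32 in baseline B and 12.27, 12.40 and 12.55 after chronic T3 (2.20-fold higher). The uptake transporter genes Slco1a1 (-0.73 ± 0.35) and Slc16a10 (0.25 ± 0.26) were not called. Leaving out 1 array moved the fitted log2 difference of Serpina7 (-4.68 without chronic array 1).

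Of 22 measured genes known to respond to T3, 10 were called higher and 1 lower, with a median of 0.67. Idh3a, a subunit of the mitochondrial isocitrate dehydrogenase, read 8.09, 8.55 and 8.66 in baseline B and 9.62, 9.94 and 10.41 after chronic T3 (2.95-fold higher, adjusted p = 0.000239). Gpd2, the mitochondrial glycerol-3-phosphate dehydrogenase, read 9.91, 9.36 and 9.40 in baseline B and 11.01, 11.54 and 10.81 after chronic T3 (2.96-fold higher). Cyp7a1, which catalyses the first and limiting step from cholesterol to bile acids, read 11.07, 12.40 and 12.42 in baseline B and 13.63, 13.73 and 14.14 after chronic T3 (3.66-fold higher, adjusted p = 0.00164). Hr, a corepressor of nuclear receptors, was not well above background in baseline B and read 8.87, 8.33 and 7.05 after chronic T3 (at least 3.11-fold higher). Srebf1, which drives the transcription of fat synthesis genes, was the gene called lower, with 9.90, 9.84 and 9.27 in baseline B and 8.11, 8.61 and 8.6 after chronic T3 (2.35-fold lower, adjusted p = 0.000759). All 3 chronic T3 arrays lay outside the range of baseline B in these 5 genes. Fgf21, a hormone of fasting and stress, read 7.06, 6.49 and 5.89 in baseline B and 9.84, 8.99 and 9.79 after chronic T3 (at least 6.66-fold higher, adjusted p = 0.00647), while the gene of its coreceptor, Klb, read 9.10, 8.84 and 9.44 in baseline B and 7.49, 7.46 and 7.81 after chronic T3 (2.92-fold lower, adjusted p = 0.000199).

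Many of the large changes above are of genes known to differ between male and female mouse liver, and all mice here were male. Of 32 measured male-biased genes 15 were called lower and 1 higher, with a median of -0.76. Of 21 measured female-biased genes 9 were called higher and 2 lower (1 without chronic array 3 or baseline array 3), with a median of 1.44. That median ran from 0.225 to 1.54 with 1 array left out, and the male-biased median from -1.02 to -0.541. Among male-biased genes, Keg1 read 14.07, 14.09 and 14.13 in baseline B and 11, 11.87 and 11.84 after chronic T3 (5.76-fold lower, adjusted p = 5.27e-06). C6, a component of the terminal complement pathway, read 11.61, 11.90 and 12.17 in baseline B and 9.95, 9.96 and 10.04 after chronic T3 (3.75-fold lower). Cyp2d9, a steroid hydroxylase, read 15.01, 15.18 and 15.26 in baseline B and 11.18, 13.28 and 13.86 after chronic T3 (5.18-fold lower, adjusted p = 0.0041). Sult5a1 was the male-biased gene called higher, with 8.02, 7.93 and 7.88 in baseline B and 10.26, 10.90 and 10.81 after chronic T3 (6.56-fold higher, adjusted p = 1.24e-05). Among female-biased genes, Gstt3, a glutathione S-transferase, read 11.59, 11.22 and 11.39 in baseline B and 12.41, 13.11 and 13 after chronic T3 (2.72-fold higher), and Cux2, a transcription factor of female liver, read 8.32, 7.72 and 7.33 after chronic T3 without being well above background in baseline B (at least 2.53-fold higher, adjusted p = 0.00283). Acot3, a peroxisomal acyl-CoA thioesterase, was called lower, with 7.53, 8.15 and 8.48 in baseline B and 5.78, 5.12 and 4.92 after chronic T3 (at least 3.78-fold lower). In none of these 7 genes did the arrays of the groups overlap. The female-biased list holds Cyp17a1, Akr1c18, Ntrk2, Sult2a2 and Tff3 as well, and the male-biased list holds Cyp4a12a, Cyp4a12b and Obp2a. Both lists were written with earlier results of these data known and hold several of the largest changes. Their counts and medians are thus not independent of those changes. The sex bias of liver genes is known to follow the pattern of growth hormone secretion. Of 17 measured genes of the growth hormone and IGF axis 3 were called higher and 1 lower. The receptor gene Ghr read 13.56, 13.42 and 13.73 in baseline B and 12.33, 12.89 and 12.76 after chronic T3 (1.88-fold lower, adjusted p = 0.000962). Stat5a, a signal transducer of growth hormone, read 7.46, 7.01 and 7.28 in baseline B and 8.80, 9.20 and 8.64 after chronic T3 (3.11-fold higher, adjusted p = 0.000168), and Igf1 read 13.69, 13.66 and 13.60 in baseline B and 13.67, 13.95 and 13.92 after chronic T3 and was not called. With 1 array omitted, the fitted log2 difference changed for Cyp2d9 (-1.58 without chronic array 1). On a dimmer probe the log2 difference was 0.08 for Ghr.

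Cytochrome P450 genes, whose products oxidize drugs, steroids and fatty acids, were called lower in 21 and higher in 6 of 46 measured, with a median of -0.60. Without baseline B replicate 3 there were 13 called lower. Beyond the enzymes above, Cyp4v3 read 13.68, 13.45 and 13.85 in baseline B and 11.89, 12.11 and 12.07 after chronic T3 (3.11-fold lower) and Cyp2c67 read 13.65, 13.57 and 13.31 in baseline B and 11.79, 11.53 and 11.99 after chronic T3 (3.34-fold lower). Cyp3a11, the main drug-oxidizing enzyme induced by the pregnane X receptor, read 14.93, 14.25 and 14.69 in baseline B and 13.46, 12.88 and 13.54 after chronic T3 (2.51-fold lower, adjusted p = 0.00736). Cyp2a12 rose, with 13.78, 13.36 and 13.38 in baseline B and 14.32, 14.40 and 14.21 after chronic T3 (1.75-fold higher). Of 20 measured targets of xenobiotic receptors 7 were called lower and none higher (2 without baseline array 3, 3 without baseline array 1). One such target, Cyp2b10 of the constitutive androstane receptor, was at 0.09 ± 0.68 and not called. Conjugating enzymes, which make drugs and hormones soluble, differed by family. Of 14 measured UDP-glucuronosyltransferase genes 6 were called lower and 1 higher (Ugt1a10), among those lower Ugt3a1, with 12.18, 11.84 and 12.09 in baseline B and 9.25, 9.72 and 10.29 after chronic T3 (4.86-fold lower, adjusted p = 0.000205). Of 6 measured sulfotransferase genes 4 were called higher (Sult5a1, Sult2a2, Sult1d1 and Sult1a1) and none lower (1 without chronic arrays 1 or 3). Under median scaling 3 were called higher and 1 lower, and the lowest log2 difference of the family was -1.01. Sult1a1 was at 0.71 ± 0.22 (adjusted p = 0.0347). Members of the glucuronosyltransferase and P450 families are similar in sequence, and probes may read more than 1 of them. Ugt1a10 was not called when chronic arrays 1 or 2 or baseline arrays 2 or 3 were omitted (adjusted p 0.0862 to 0.141). Sult1a1 was not called when chronic array 1 or baseline arrays 1 or 3 were omitted (adjusted p 0.0834 to 0.134). A dimmer probe gave a log2 difference of -0.29 for Ugt1a10.

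Genes of antioxidant defence and targets of NRF2, the factor that answers oxidative stress, were called lower in 12 and higher in 2 of 28 measured (lower in 6 without baseline array 3, 7 without chronic array 3 or baseline array 1 and higher in 1 without chronic arrays 1 or 3 or baseline arrays 1 or 3), with a median of -0.27. Both subunits of the enzyme that starts glutathione synthesis fell. Its catalytic subunit Gclc read 8.24, 7.39 and 7.66 in baseline B and 6.05, 5.22 and 6.35 after chronic T3 (at least 2.94-fold lower, adjusted p = 0.00116) and the modifier subunit Gclm read 12.14, 11.93 and 12.14 in baseline B and 11.19, 11.41 and 11.28 after chronic T3 (1.71-fold lower, adjusted p = 0.000982). Txnrd1, the cytosolic thioredoxin reductase, read 7.0, 6.97 and 7.61 in baseline B and 6.18, 6.09 and 6.54 after chronic T3 (at least 1.87-fold lower). Ephx1, the microsomal epoxide hydrolase, read 13.26, 13.11 and 13.39 in baseline B and 12.70, 12.20 and 12.26 after chronic T3 (1.82-fold lower). In these 4 genes no chronic T3 array reached the lowest baseline B array. Hmox1, the heme oxygenase, was called higher, with 7.54, 6.75 and 6.76 in baseline B and 9.03, 8.53 and 8.35 after chronic T3 (at least 3.0-fold higher, adjusted p = 0.0129). Of 19 glutathione S-transferase genes measured, 8 were called lower, all of the alpha, mu and pi classes (4 without chronic arrays 2 or 3 or baseline arrays 1 or 3), and 2 higher, Gstt1 and Gstt3 of the theta class, whose other measured member Gstt2 was at -0.19 ± 0.22 and not called. Gstp1 read 15.08, 15.54 and 15.32 in baseline B and 13.46, 13.82 and 14.52 after chronic T3 (2.60-fold lower) and Gstm1 read 13.13, 13.37 and 13.30 in baseline B and 12.94, 11.75 and 11.79 after chronic T3 (2.15-fold lower). Gstt1 of the theta class read 12.67, 12.42 and 12.31 in baseline B and 13.47, 13.88 and 13.93 after chronic T3 (2.45-fold higher, adjusted p = 0.000199). Members of a class are similar in sequence and may share probes.

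Of 17 measured genes of cholesterol synthesis and uptake 9 were called higher and none lower (4 higher and 1 lower with replicate 1 as the only chronic T3 array), with a median of 0.79. In the order of the pathway, Mvd, which makes isopentenyl pyrophosphate, read 7.74, 7.68 and 7.95 in baseline B and 9.14, 10.05 and 10.42 after chronic T3 (4.22-fold higher, adjusted p = 0.00036). Sqle, the squalene epoxidase, read 10.56, 10.87 and 10.90 in baseline B and 12.41, 12.68 and 13.20 after chronic T3 (3.97-fold higher, adjusted p = 0.00163). Lss, which closes the sterol rings, read 9.0, 9.31 and 9.01 in baseline B and 9.87, 10.66 and 10.57 after chronic T3 (2.39-fold higher). Of the later steps, Msmo1 was at 1.17 ± 0.23, Hsd17b7 at 1.29 ± 0.20 and Dhcr7 at 1.05 ± 0.16, and all 3 were called. Replicate 1 was the lowest of the chronic T3 arrays in each of these 6 genes. Srebf2, the main transcription factor of the pathway, read 8.63, 8.62 and 8.51 in baseline B and 9.10, 10.05 and 9.85 after chronic T3 (2.11-fold higher, adjusted p = 0.00232), with replicate 1 lowest as well. Idi1 (0.75 ± 0.34), which makes dimethylallyl pyrophosphate, and Ebp (-0.09 ± 0.13), a sterol isomerase, were not called. On a dimmer probe the log2 difference was -0.26 for Lss.

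Of 28 measured genes of fatty acid and triglyceride synthesis 4 were called higher (2 without chronic array 2 or baseline arrays 1 or 3) and 2 lower (1 without chronic array 1 or baseline array 2), and the median was 0.04. Fasn, the fatty acid synthase, was at 0.44 ± 0.41 and not called. Of 38 measured genes of fatty acid oxidation and ketogenesis 9 were called lower and 2 higher, with a median of -0.26. Ppara, the nuclear receptor that drives their transcription, read 7.96, 7.36 and 7.21 in baseline B and 6.33, 5.46 and 5.34 after chronic T3 (at least 2.31-fold lower, adjusted p = 0.000483). Acot1, a cytosolic acyl-CoA thioesterase, read 11.14, 11.35 and 11.44 in baseline B and 9.07, 9.27 and 8.79 after chronic T3 (4.81-fold lower, adjusted p = 0.000483). Acadm, the medium-chain acyl-CoA dehydrogenase, read 13.93, 13.76 and 13.68 in baseline B and 13.27, 12.60 and 13.12 after chronic T3 (1.74-fold lower). Ech1 (-0.68 ± 0.14) and the peroxisomal thiolase gene Acaa1b (-0.67 ± 0.12) were called lower by less. Of 19 measured lipid droplet genes 6 were called higher (3 to 4 with each array left out, 3 without chronic array 1 or baseline array 1) and 4 lower. Pnpla2, the adipose triglyceride lipase, read 11.02, 11.25 and 11.37 in baseline B and 12.01, 11.80 and 12.06 after chronic T3 (1.67-fold higher), and Mgll, the monoacylglycerol lipase, read 11.01, 11.31 and 11.20 in baseline B and 11.78, 12.28 and 12.19 after chronic T3 (1.88-fold higher). Hsd17b11, a droplet-associated dehydrogenase, read 10.69, 10.82 and 10.58 in baseline B and 9.04, 8.54 and 9.36 after chronic T3 (3.29-fold lower), and the arylacetamide deacetylase Aadac read 9.93, 10.23 and 9.65 in baseline B and 7.93, 8.29 and 8.48 after chronic T3 (3.26-fold lower).

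Of 26 measured genes of apolipoproteins and lipoprotein handling 4 were called higher and 4 lower (2 without chronic array 2). Apoa4 read 10.20, 10.60 and 10.53 in baseline B and 14.72, 12.81 and 11.79 after chronic T3 (6.34-fold higher, adjusted p = 0.00337) and was highest on replicate 1. Angptl8, an inhibitor of lipoprotein lipase that responds to feeding, read 11.41, 11.42 and 10.86 in baseline B and 9.50, 8.19 and 8.76 after chronic T3 (5.32-fold lower, adjusted p = 0.00146). Apoa1 (-0.05 ± 0.09) and Apob (-0.19 ± 0.27) were not called. Of 25 measured genes of bile acids and sterol export 3 were called higher and 4 lower (2 without baseline arrays 1 or 3). Beside Cyp7a1 above, Slc51b, a subunit of the basolateral bile acid exporter, read 6.51, 6.17 and 5.39 in baseline B and 9.04, 8.53 and 7.15 after chronic T3 (at least 3.23-fold higher, adjusted p = 0.00699). Abcc3, another basolateral exporter, read 11.97, 11.38 and 11.43 in baseline B and 9.44, 8.89 and 8.52 after chronic T3 (6.25-fold lower, adjusted p = 1.84e-05). Cyp8b1, which fixes the share of cholic acid, was at -0.37 ± 0.22 and Abcb11, the canalicular bile salt pump, at 0.19 ± 0.21, and neither was called. Among organic anion transporters, the prostaglandin carrier Slco2a1 read 11.08, 10.59 and 10.77 in baseline B and 8.94, 8.70 and 8.75 after chronic T3 (4.05-fold lower, adjusted p = 2.24e-06). The log2 difference depended on single arrays for Apoa4 (1.86 without chronic array 1 and 3.32 without chronic array 3).

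Genes of glucose and glycogen were called lower in 8 and higher in 1 of 34 measured (Foxo1). Slc2a2, the glucose carrier GLUT2, read 12.52, 12.63 and 12.38 in baseline B and 11.12, 11.26 and 11.44 after chronic T3 (2.35-fold lower, adjusted p = 0.000437). Ugp2, which makes UDP-glucose for glycogen, read 11.78, 11.50 and 11.70 in baseline B and 10.62, 10.34 and 10.44 after chronic T3 (2.28-fold lower, adjusted p = 4.35e-05). Ppp1r3g, a subunit that brings a phosphatase to glycogen, read 8.66, 9.71 and 9.87 in baseline B and 6.10, 5.12 and 5.18 after chronic T3 (at least 9.11-fold lower, adjusted p = 6.49e-05). Pklr, the pyruvate kinase of liver, read 8.02, 9.05 and 7.79 in baseline B and 6.22, 6.90 and 6.13 after chronic T3 (at least 3.41-fold lower), and Pdk1, a kinase that inhibits pyruvate dehydrogenase, read 10.28, 10.26 and 9.95 in baseline B and 8.48, 9.10 and 8.88 after chronic T3 (2.54-fold lower). Of gluconeogenesis, Fbp1 read 13.86, 13.91 and 13.84 in baseline B and 13.24, 13.21 and 12.95 after chronic T3 (1.67-fold lower) and Pcx was at -0.62 ± 0.16 (adjusted p = 0.0132), while Pck1 (-0.46 ± 0.23) and G6pc (-0.70 ± 0.42) were not called. None of the falls named with 6 values had an array within baseline B. Foxo1 was not called when chronic arrays 1 or 3 or baseline arrays 1 or 3 were omitted (adjusted p 0.0624 to 0.124). A dimmer probe gave a log2 difference of 0.30 for Foxo1.

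Of 52 measured genes of amino acid catabolism and the urea cycle 12 were called lower and 4 higher, with a median of -0.26. Oat, the ornithine aminotransferase, read 14.67, 13.88 and 14.40 in baseline B and 11.77, 11.65 and 12.32 after chronic T3 (5.30-fold lower, adjusted p = 9.77e-06). Tdo2, which opens the ring of tryptophan, read 9.69, 9.74 and 10.11 in baseline B and 7.92, 8.25 and 8.95 after chronic T3 (2.77-fold lower), and Haao of the same pathway read 13.25, 13.31 and 13.22 in baseline B and 12.15, 12.68 and 12.33 after chronic T3 (1.84-fold lower). In the urea cycle, Otc read 9.51, 9.47 and 9.81 in baseline B and 8.39, 8.81 and 8.71 after chronic T3 (1.95-fold lower, adjusted p = 0.000691) and the aspartate carrier Slc25a13 read 8.55, 8.43 and 8.31 in baseline B and 6.93, 7.06 and 7.61 after chronic T3 (2.34-fold lower). Cps1 (-0.23 ± 0.24), Ass1 (-0.10 ± 0.23), Asl (-0.53 ± 0.49) and Arg1 (0.14 ± 0.12) of the cycle were not called. Among the genes called higher were Gldc of the glycine cleavage system, at 12.98, 12.50 and 12.91 in baseline B and 13.84, 13.83 and 13.58 after chronic T3 (1.93-fold higher), and Psat1 of serine synthesis, at 8.90, 7.81 and 9.25 after chronic T3 and not well above background in baseline B (at least 4.61-fold higher, adjusted p = 1.32e-05). Of 21 measured genes of methionine, choline and ethanolamine 6 were called lower and none higher. Chdh, which oxidizes choline, read 9.19, 8.90 and 9.04 in baseline B and 7.77, 7.08 and 7.47 after chronic T3 (3.04-fold lower, adjusted p = 4.42e-05), and Gnmt, which uses up methyl groups on glycine, read 14.92, 15.02 and 14.94 in baseline B and 14.33, 14.06 and 14.09 after chronic T3 (1.74-fold lower). Psat1 is also a target of the integrated stress response. Of 25 measured genes of that response and the unfolded protein response 9 were called higher and none lower (6 to 7 higher with each array left out). Atf5 (1.14 ± 0.15) and Ddit3 (0.93 ± 0.19) were among those called higher. The endoplasmic reticulum chaperone Hspa5 (0.19 ± 0.22) was not called. On a dimmer probe the log2 difference was 0.07 for Gnmt and 0.44 for Ddit3.

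Of 21 measured nuclear receptor genes 4 were called higher and 6 lower. Esr1, the estrogen receptor alpha, read 7.64, 8.11 and 7.37 in baseline B and 9.61, 10.46 and 9.34 after chronic T3 (4.27-fold higher, adjusted p = 0.00186). Ppard read 7.31, 7.98 and 7.96 in baseline B and 8.73, 10.22 and 9.90 after chronic T3 (3.65-fold higher) and the retinoic acid receptor gene Rarb read 7.10, 7.15 and 5.94 in baseline B and 8.73, 8.94 and 8.44 after chronic T3 (at least 3.17-fold higher). Pparg read 9.03, 7.97 and 8.62 in baseline B and 7.66, 6.59 and 6.04 after chronic T3 (at least 3.14-fold lower, adjusted p = 0.00429). Ppard thus stood higher than in baseline B on every array and Pparg lower, and Ppara (-1.80, above) was lower as well. Rxra, the partner of the T3 receptors, was at -0.26 ± 0.15 and not called. Thra and Thrb, the T3 receptor genes, were not tested, since their probes were detected on fewer than 3 arrays. By liver zone, pericentral genes were called lower in 13 and higher in 4 of 30 measured (lower in 7 without baseline array 3, 8 without chronic array 1 or baseline array 1), and periportal genes lower in 5 and higher in 5 of 30. Rgn, a calcium-binding lactonase of the pericentral list, read 9.28, 9.09 and 9.39 in baseline B and 6.83, 7.71 and 7.51 after chronic T3 (3.74-fold lower). Atp1b1, a sodium pump subunit of the periportal list, read 11.25, 10.73 and 10.95 in baseline B and 12.53, 11.86 and 12.22 after chronic T3 (2.34-fold higher, adjusted p = 0.00039).

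Of 24 markers of Kupffer cells and other macrophages, 21 were measured and 18 were called higher, none lower, with a median of 1.56. The summed signal of the 21 was 18900 to 25900 per array in baseline B and 36500 to 62900 after chronic T3. Folr2, the folate receptor of resident macrophages, read 8.49, 8.02 and 8.11 in baseline B and 10.57, 10.62 and 10.20 after chronic T3 (4.78-fold higher, adjusted p = 8.7e-06). The 3 chains of complement C1q rose together. C1qa read 8.95, 8.32 and 8.68 in baseline B and 10.79, 10.50 and 9.77 after chronic T3, C1qb read 9.68, 9.05 and 9.07 in baseline B and 11.66, 11.20 and 10.72 after chronic T3 and C1qc read 9.77, 9.11 and 9.21 in baseline B and 11.79, 10.94 and 10.66 after chronic T3 (3.26-fold, 3.79-fold and 3.41-fold higher). All 3 were highest on replicate 1 and lowest on replicate 3 of the chronic T3 group. Clec4f and Timd4, both known from Kupffer cells, read 9.45, 9.07 and 9.38 in baseline B and 11.36, 10.81 and 10.37 after chronic T3 for Clec4f and 7.71, 6.87 and 7.31 in baseline B and 9.18, 9.53 and 8.52 after chronic T3 for Timd4. Csf1r, the receptor on which macrophages depend, read 8.79, 8.27 and 8.2 in baseline B and 9.83, 9.67 and 9.33 after chronic T3 (2.29-fold higher, adjusted p = 0.000448). Marco, a scavenger receptor, read 6.27, 6.63 and 5.81 in baseline B and 9.80, 10.87 and 7.61 after chronic T3 (at least 7.14-fold higher, adjusted p = 0.00831). Slc40a1 (0.59 ± 0.20), Mpeg1 (0.83 ± 0.37) and Mrc1 (0.38 ± 0.21) were not called. In bulk tissue more cells of a type and more RNA per cell cannot be told apart. On the same arrays the summed signal and the mean log2 signal of the hepatocyte markers, given above, were below those of baseline B. Quantile normalization gives every array the same distribution, which limits how far a sum led by bright probes can move. The hepatocyte sum is therefore no independent reference for the macrophage markers. Leaving out 1 array moved the fitted log2 difference of Marco (2.47 without chronic array 2 and 4.10 without chronic array 3).

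Of 17 measured endothelial markers 4 were called higher (1 without chronic array 1 or baseline array 3, 2 without chronic array 2 or baseline array 1) and none lower, among them Cdh5, the cadherin of endothelial cells, with 8.27, 7.83 and 8.01 in baseline B and 8.95, 9.04 and 8.6 after chronic T3 (adjusted p = 0.00156). Of 15 measured stellate cell and fibroblast markers 1 was called higher (2 without chronic array 2 or baseline array 1), Sparc, with 9.34, 9.13 and 9.03 in baseline B and 10.71, 9.82 and 9.74 after chronic T3. Of 31 measured extracellular matrix genes 6 were called higher (2 without baseline array 3, 3 without baseline array 2) and 1 lower (2 without chronic arrays 1 or 2). Col4a3, a basement membrane collagen, was not well above background in baseline B and read 7.98, 7.40 and 7.54 after chronic T3 (at least 2.28-fold higher, adjusted p = 2.65e-06). Of lymphocyte, neutrophil, cholangiocyte, erythroid and adipocyte markers 3 of 21, 3 of 12, 1 of 11, 4 of 10 and 1 of 7 were detected, too few to describe those cells. Of 27 measured immunoglobulin-like and lectin receptors of leukocytes 14 were called higher and none lower, with Siglec1 of macrophages at 6.5, 6.32 and 5.64 in baseline B and 8.53, 8.34 and 7.53 after chronic T3 (at least 2.97-fold higher). Of 16 measured chemokine genes 5 were called higher (8 without chronic array 3) and 3 lower (1 without baseline array 3). Ccl6 was not well above background in baseline B and read 9.14, 8.32 and 8.19 after chronic T3 (at least 4.29-fold higher). Of 29 measured lysosome genes 7 were called higher and 1 lower, among them the protease Lgmn, with 10.48, 9.88 and 9.78 in baseline B and 12.06, 11.19 and 11.01 after chronic T3 (2.58-fold higher). None of 7 measured MHC class II genes passed the test of limma (0 had an unadjusted p under 0.05), and Cd74 was at 0.51 ± 0.38. Of 20 measured genes of MHC class I and antigen processing 1 was called higher (H2-D1) and 1 lower (H2-Q10, -0.90 ± 0.17). The macrophage markers rose on the same arrays as these leukocyte, chemokine and lysosome genes, and their part in those changes was not tested. H2-D1 was not called when chronic array 1 or baseline arrays 1 or 3 were omitted (adjusted p 0.0697 to 0.129). A dimmer probe gave a log2 difference of 0.36 for Sparc and -0.000181 for H2-D1.

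Interferon-induced genes were called higher in 15 and lower in none of 31 measured, with a median of 0.72 (higher in 7 without baseline array 3, 9 without baseline array 1, and in 23 with replicate 1 as the only chronic T3 array). Under median scaling 5 of the 31 were called higher, with a median of 0.744. Gbp3, a guanylate-binding GTPase, read 8.27, 8.36 and 8.14 in baseline B and 11.71, 10.59 and 10.31 after chronic T3 (6.11-fold higher, adjusted p = 0.000168). Oas1g, of the 2'-5' oligoadenylate synthetases, read 7.99, 7.94 and 7.98 in baseline B and 11.19, 9.84 and 9.09 after chronic T3 (4.2-fold higher, adjusted p = 0.00225), and its near-identical relatives may share its probe. Ifi27l2a read 9.10, 8.93 and 8.74 in baseline B and 11.57, 11.20 and 10.16 after chronic T3 (4.15-fold higher). Isg15, a ubiquitin-like modifier, read 8.86, 8.66 and 8.50 in baseline B and 11.54, 9.23 and 9.32 after chronic T3, and Ifit3 read 9.83, 9.57 and 9.59 in baseline B and 12.13, 10.55 and 10.01 after chronic T3. Replicate 1 was the highest array in all 5 genes, by over 2 log2 units in Isg15. The macrophage markers were higher on the same arrays, and their part in this change was not tested. Isg15 was not called when baseline arrays 1, 2 or 3 were omitted (adjusted p 0.0688 to 0.113). Ifit3 was not called when baseline arrays 1, 2 or 3 were omitted (adjusted p 0.0582 to 0.0876). With 1 array omitted, the fitted log2 difference changed for Isg15 (0.61 without chronic array 1) and Ifit3 (0.62 without chronic array 1). On a dimmer probe the log2 difference was 0.60 for Ifit3.

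Interferon signals reach such genes through STAT and IRF factors that are known to bind a repeat of GAAA in their promoters. Of the 5 genes above, which rose together, 4 are shown as examples and Ifi27l2a is not. The promoters of these 4 hold the matches shown, to 2 GAAA repeats set apart by 2 bases of any kind. They come from RefSeq (GRCm38.p6), with up to 40 bases on each side within the 250 bases before the gene's start, 5' to 3' on the gene's strand, and capitals mark such a pair, in this form or as its reverse complement (TTTC), with overlapping matches joined. The Gbp3 stretch lies at chr3:142559959-142560043 (plus strand), in 1 of the 2 promoters listed for that gene, the Oas1g stretch at chr5:120887614-120887671 (minus strand), the Isg15 stretch at chr4:156200835-156200936 (minus strand) and the Ifit3 stretch at chr19:34583333-34583456 (plus strand).
Gbp3: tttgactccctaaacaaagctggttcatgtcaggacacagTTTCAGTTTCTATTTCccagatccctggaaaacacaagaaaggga
Oas1g: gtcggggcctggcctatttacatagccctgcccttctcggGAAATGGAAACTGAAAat
Isg15: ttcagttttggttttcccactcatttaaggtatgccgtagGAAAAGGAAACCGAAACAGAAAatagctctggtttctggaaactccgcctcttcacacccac
Ifit3: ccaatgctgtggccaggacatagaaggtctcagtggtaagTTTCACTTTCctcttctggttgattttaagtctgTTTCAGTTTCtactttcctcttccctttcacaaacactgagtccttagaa
Gbp3 and Oas1g each hold 2 overlapping matches, Isg15 3, and Ifit3 2 that lie apart. Over the 27025 genes with a promoter 3.46% held a match in these 250 bases, and 3.45% of the 7331 genes tested that have one. Of the interferon-induced genes 11 of 22 held a match, 5 of 9 called higher and 6 of 13 not called. Among all genes called higher 4.67% held it and among those called lower 3.13%. The half-site AGGTCA, which many nuclear receptors bind, was found on either strand in 13.5% of the tested genes, 13.1% of those called higher and 14.2% of those called lower. A match is a run of letters and not a site shown to be bound.

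Cell cycle and DNA replication genes were called higher in 16 and lower in 1 of 31 measured, with a median of 0.95. Ccnd1, the cyclin that starts the cycle, read 10.44, 10.30 and 10.62 in baseline B and 13.60, 12.74 and 12.29 after chronic T3 (5.36-fold higher, adjusted p = 0.0013). The replicative helicase is a ring of 6 MCM proteins, of which 5 were measured. Mcm5 read 6.8, 6.10 and 6.53 in baseline B and 9.46, 8.83 and 8.32 after chronic T3 (at least 4.69-fold higher, adjusted p = 0.000234), Mcm4 was at 1.24 ± 0.24 and Mcm6 at 1.38 ± 0.25, Mcm2 was not well above background in baseline B (at least 1.59-fold higher), and Mcm7 was at 0.62 ± 0.21 (adjusted p = 0.0496). Rrm2, a subunit of ribonucleotide reductase, read 6.48, 7.46 and 6.26 in baseline B and 8.61, 8.18 and 8.38 after chronic T3 (at least 2.74-fold higher). Cdkn1a, the cell cycle inhibitor p21, rose too, from not well above background to 9.0, 8.65 and 8.71 (at least 5.05-fold higher, adjusted p = 1.15e-06). Mcm10 was the gene called lower, with 13.22, 13.22 and 13.14 in baseline B and 10.59, 11.06 and 11.23 after chronic T3 (4.70-fold lower), and it is also a male-biased gene of mouse liver in the list above. Replicate 1 was the highest chronic T3 array for Ccnd1 and for each MCM gene that rose. Of 44 measured histone genes 9 were called higher (2 without baseline array 2, 4 without baseline array 3, 5 without chronic array 2) and 2 lower, with the linker histone H1f2 at 12.03, 12.48 and 11.78 in baseline B and 13.78, 13.36 and 13.06 after chronic T3 (2.47-fold higher). Histone genes are similar in sequence and may share probes. Mcm7 was not called when chronic arrays 1, 2 or 3 or baseline arrays 1 or 3 were omitted (adjusted p 0.0657 to 0.177).

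Of 70 measured subunits of oxidative phosphorylation 5 were called higher (1 without chronic array 2 or baseline array 3, 2 without baseline array 1) and 3 lower (1 without chronic arrays 1 or 2 or baseline arrays 2 or 3, 5 without chronic array 3), with a median of 0.03. Of 54 cytosolic ribosomal protein genes 4 were called higher (2 without chronic array 2 or baseline array 3) and 1 lower (0 without chronic array 1). Of 72 mitochondrial ribosomal protein genes 5 were called higher (1 without chronic array 3 or baseline arrays 2 or 3, 2 without chronic array 2) and 3 lower, and of 42 proteasome genes 3 were called lower and none higher. Log2 differences ran from -0.70 to 0.98 over the oxidative phosphorylation genes, from -0.55 to 0.64 and from -0.65 to 0.88 over the cytosolic and mitochondrial ribosomal protein genes and from -0.72 to 0.60 over the proteasome genes. Among the members called were Cox7a1 of cytochrome oxidase at 0.98 ± 0.21, Ndufb2 of complex I at -0.70 ± 0.13, Rplp2 of the ribosomal stalk at 0.64 ± 0.13 and Mrpl14 of the mitochondrial ribosome at -0.65 ± 0.10. Of 20 measured genes of mitochondrial biogenesis and uncoupling 4 were called higher and 1 lower (2 without chronic array 1 or baseline array 1), with citrate synthase Cs at 0.55 ± 0.13 (adjusted p = 0.0102). Of 14 measured clock genes 1 was called lower (Nr1d1). Dbp, an output gene of the clock, was at -0.40 ± 0.60 and not called. Of 19 immediate early and heat shock genes 3 were called lower and none higher, with Fos at 7.91, 8.24 and 7.08 in baseline B and 6.22, 5.50 and 4.89 after chronic T3 (at least 2.79-fold lower, adjusted p = 0.00136). Nr1d1 was not called when chronic arrays 1 or 2 or baseline arrays 1 or 3 were omitted (adjusted p 0.067 to 0.13).

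Of 27 measured acute phase genes 5 were called higher (3 without chronic array 1 or baseline array 1) and 1 lower (0 without baseline array 3, 2 without chronic array 1), with Cp, the ceruloplasmin gene, at 13.80, 13.80 and 13.61 in baseline B and 14.66, 14.38 and 14.12 after chronic T3 (1.56-fold higher). Of 27 complement genes 6 were called higher and 8 lower (5 without baseline array 3). The genes called higher hold C1qa, C1qb and C1qc together with Cfp, the properdin gene (1.48 ± 0.22), and Fcna, a lectin of macrophages (1.56 ± 0.21), while C6 and C8a (-1.08 ± 0.21) of the terminal pathway and Cfhr2 (-1.0 ± 0.18) were called lower. Of 36 coagulation and serpin genes 4 were called higher (1 without chronic array 1 or baseline array 3, 2 without chronic array 2) and 7 lower (4 without chronic array 1 or baseline array 2), with the protein C gene Proc at -0.60 ± 0.14. Of 26 iron and heme genes 4 were called higher and 3 lower (1 without baseline array 3). Of 12 fetal liver genes 4 were called higher and 3 lower (0 without chronic array 2 or baseline arrays 1 or 3, 1 without chronic array 3). Of 169 measured solute carriers 31 were called higher and 24 lower, with Slc25a45, a carrier of the inner mitochondrial membrane, at 10.54, 10.76 and 10.63 in baseline B and 11.98, 12.20 and 12.18 after chronic T3 (2.78-fold higher, adjusted p = 6.08e-06) and the lowest p-value of that family. A dimmer probe gave a log2 difference of 0.19 for Cp.

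**Figure D3:**
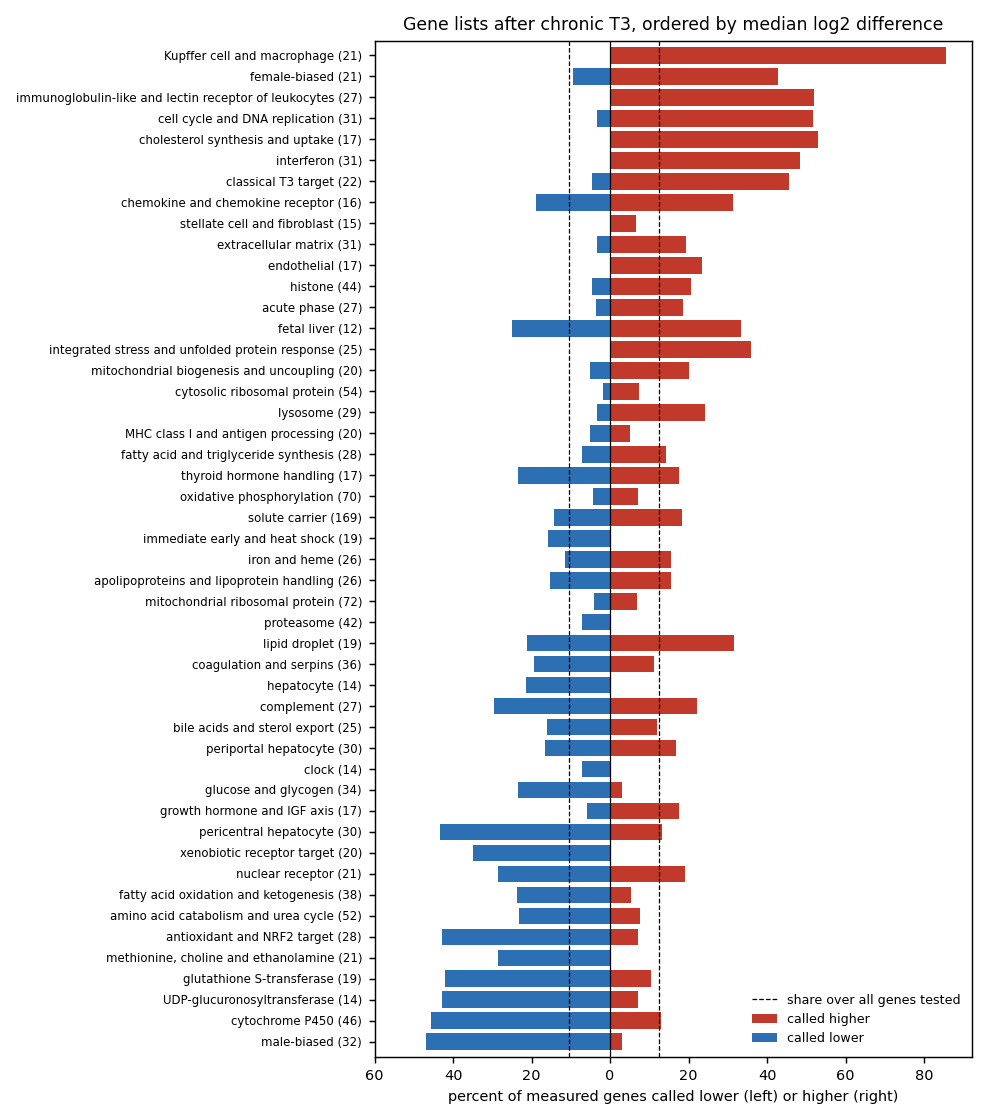
Share of the measured genes of each list with at least 10 measured (number in brackets) called higher (red, right) or lower (blue, left) after chronic T3, ordered by the list's median log2 difference; dashed lines are the shares over all 8976 genes, 12.4% higher and 10.5% lower. Macrophage markers stand highest with 85.7% called higher, and male-biased genes lowest in median with 46.9% called lower.

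Acute T3 against baseline A shares no array with the chronic comparison and called 190 genes (2.12% of those tested), 132 higher (1.47%) and 58 lower (0.646%). Baseline B differed from baseline A in 782 genes (8.71%), and the duration of T3 and the subset cannot be told apart. Setting each treated group against its own baseline does not remove a response that depends on the level in that baseline. Of the acute calls, 116 were called after chronic T3 as well, which is 61.1% of the acute list and 5.65% of the chronic list. In 84 both calls were higher and in 26 both lower. Acot11, an acyl-CoA thioesterase, rose in both, by 3.03 ± 0.52 after acute and 2.77 ± 0.52 after chronic T3, and Cela2a, an elastase gene, by 2.15 ± 0.24 and 2.81 ± 0.24. Mvd (2.01 ± 0.29 and 2.08 ± 0.29) and Sqle (1.91 ± 0.35 and 1.99 ± 0.35) of cholesterol synthesis, Ttbk1 (2.85 ± 0.30 and 3.71 ± 0.30) and Crybb3 (3.16 ± 0.64 and 2.86 ± 0.64) rose in both as well. Ppp1r3g (-1.95 ± 0.44 and -3.94 ± 0.44) and Fos (-1.95 ± 0.37 and -2.21 ± 0.37) fell in both. The count of acute calls rests on few arrays and was 48 to 164 when 1 of its 6 arrays was left out (57 and 96 without baseline A replicates 1 and 2, and 52, 82 and 48 without acute T3 replicates 1, 2 and 3). The log2 difference depended on single arrays for Crybb3 (3.65 without chronic array 1 and 2.24 without chronic array 2).

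In 6 genes the calls were opposite. Cdkn1a read 7.97, 7.62 and 8.56 in baseline A and 6.03, 6.06 and 5.85 after acute T3, a fall of 2.07 ± 0.22, against the rise after chronic T3 given above. The stress-responsive Nupr1 read 7.85, 8.08 and 8.47 in baseline A and 6.47, 6.67 and 6.63 after acute T3 but 6.75, 6.71 and 6.41 in baseline B and 8.79, 7.76 and 7.10 after chronic T3 (adjusted p = 0.0132). The baselines differed too, by -2.65 for Cdkn1a and -1.51 for Nupr1 (baseline B minus baseline A), so that both were low in baseline B and high in baseline A. Slc2a2 rose by 0.88 ± 0.18 after acute and fell by 1.24 ± 0.18 after chronic T3, with baseline B 1.72 above baseline A. In the other genes called higher after acute and lower after chronic T3, baseline B stood above baseline A too, by 0.38 in Rassf3, 1.26 in Olfml1 and 1.03 in Vti1a. Rassf3, a member of the Ras association domain family, rose by 0.57 ± 0.12 and fell by 1.20 ± 0.12, Olfml1 rose by 0.86 ± 0.17 and fell by 0.73 ± 0.17, and Vti1a, a vesicle fusion protein, rose by 0.75 ± 0.15 and fell by 0.44 ± 0.15 (adjusted p = 0.0491). A test of the chronic minus the acute effect called 641 genes (7.14%), 343 of them (3.82%) with the higher value after chronic T3 and 298 (3.32%) with the lower. The count was 411 without baseline A replicate 1, 311 and 350 without acute T3 replicates 1 and 3, and 366 without baseline array 3. Nupr1 was not called when baseline array 3 was omitted (adjusted p = 0.0515). Vti1a was not called when chronic arrays 1 or 2 or baseline arrays 2 or 3 were omitted (adjusted p 0.0882 to 0.18). On a dimmer probe the log2 difference was 0.39 for Vti1a.

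**Figure D4:**
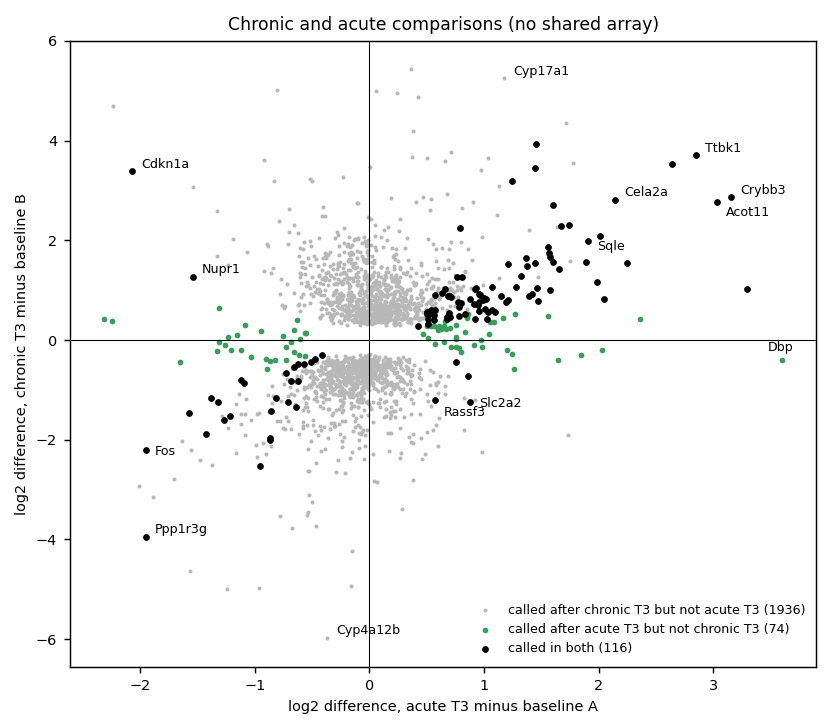
Log2 difference of acute T3 minus baseline A (x axis) and of chronic T3 minus baseline B (y axis) for genes called in either comparison. The 116 genes called in both (black) lie mostly at the upper right (84) and lower left (26), with Cdkn1a and Nupr1 in the upper left and Slc2a2 and Rassf3 among 4 in the lower right.

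T3 withdrawal, read 10 days after the last of 14 injections, shares baseline B with the chronic comparison, so its values are given beside the chronic ones and not compared in a test. Cyp17a1 read 8.94, 8.56 and 8.28 after withdrawal, Serpina7 9.77, 8.92 and 9.87, Folr2 7.50, 7.95 and 7.81 and Cyp4a12b 11.72, 11.38 and 11.74. Against baseline B these were 1.06 ± 0.47, 0.13 ± 0.60, -0.45 ± 0.20 and -0.85 ± 0.31, and none was called. The withdrawal arrays still lay above every baseline B array for Cyp17a1 and below every one for Folr2 and Cyp4a12b. Those of Serpina7 overlapped baseline B. Ntrk2 read 8.31, 8.48 and 8.23 after withdrawal, between baseline B and the chronic T3 arrays with no overlap with either, and was 2.72 ± 0.27 above baseline B (adjusted p = 0.00156). Cdkn1a read 5.74, 5.04 and 5.43 and Gbp3 8.10, 8.23 and 8.35, and neither was called. Ppp1r3g read 8.28, 7.39 and 8.0, below each baseline B array and -1.52 ± 0.44 from its mean (adjusted p = 0.449). The macrophage markers had a summed signal of 18000 to 19300 after withdrawal, beside 18900 to 25900 in baseline B.

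**Figure D5:**
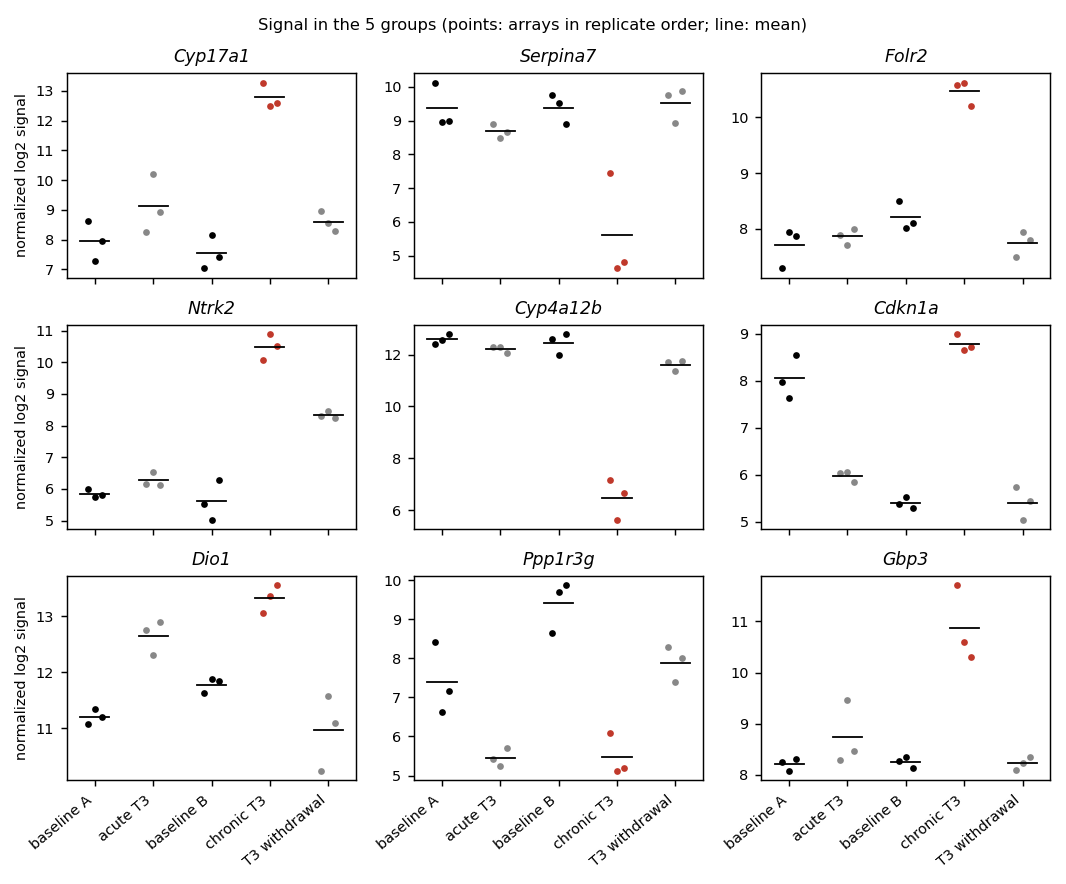
Normalized log2 signal (y axis) of 9 genes in the 5 groups of 3 arrays (x axis), with points for arrays and lines for means. The chronic T3 arrays (red) stand apart from baseline B in all 9 genes, and Ntrk2 after withdrawal lies between, at 8.23 to 8.48.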

How the data were processed

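Liver RNA of 15 samples, 5 groups of 3, was labelled and hybridised to Illumina bead arrays, per the labels' protocols, which name no scanner software, animal number or slide. The deposited intensity of each probe and array is not normalized between arrays, and the detection p-value beside it is per the file headers. A second deposited table holds intensity values with the same quantiles on every array, and Partek 6.6 is named without a role in the submitters' processing notes. Of 45281 probes, 34885 had 1 gene in GEO's platform annotation, 18 had several and 10378 had none; those without 1 gene were left out.

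Signals were background-corrected from the detection p-values and quantile-normalized (neqc of limma 3.58.1 in R 4.3.3, offset 16) and put on the log2 scale. Probes with a detection p under 0.01 on at least 3 of the 15 arrays were kept (15361), and each gene was read from its brightest probe (8976 genes). Of 3085 genes with more than 1 kept probe, a dimmer probe is given for a called gene named in the text where it was not called the same way and its difference was under 50% as large. 1 linear model with a mean for each group, fitted to the 15 arrays with 10 residual degrees of freedom (13.1 after moderation), gave the contrasts, two-sided, with Benjamini-Hochberg adjustment over all 8976 genes. The procedure was run on simulated data with independent noise in each gene. That setting cannot test deviations that many genes of an array share. The precision is limited by 3 arrays a group, for which an exact permutation test of 1 gene cannot go below p = 0.1.

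The genes named are the 20 largest rises and falls without overlap of arrays, the 5 rises and falls with the largest moderated statistic, the 10 largest in each direction of the chronic minus acute difference, from every list as many as 6 members, by adjusted p, members that complete a pathway, and genes called after both chronic and acute T3. The comparison, the genes and the lists were chosen with earlier results of these data known. Replicate numbers did not pair the arrays: residuals of same-numbered chronic T3 and baseline B arrays correlated at 0.12, -0.198 and -0.0144. Alternatives covered background correction, normalization, filter, probe summary, weights, thresholds, the replicate block and leaving out each array.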

Additional observations from a re-analysis of the deposited data

Results flagged for a closer look

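The effect of chronic T3 (against baseline B) and that of acute T3 (against baseline A) differed in 641 genes by a test of the difference itself (limma's moderated test, Benjamini-Hochberg over 8976 genes), and the 10 largest differences in each direction follow as the chronic minus the acute log2 difference ± SE. The value was higher in the chronic comparison for Tff3 (6.93 ± 1.25), Akr1c18 (5.82 ± 0.79), Cdkn1a (5.46 ± 0.31), Sult2a2 (4.93 ± 1.10), Cxcl14 (4.72 ± 0.48), Fgf21 (4.60 ± 0.96), Acnat2 (4.53 ± 0.40), Ntrk2 (4.46 ± 0.39), Cyp17a1 (4.08 ± 0.66) and Spink1 (3.92 ± 1.09), a trypsin inhibitor. It was lower in the chronic comparison for Cyp4a12b (-5.61 ± 0.44), Cyp4a12a (-4.77 ± 0.37), Ddah1 (-4.08 ± 0.99), Dbp (-4.0 ± 0.85), Nox4 (-3.67 ± 0.41), Rgs16 (-3.63 ± 0.86), a regulator of G protein signalling, Cyp2c23 (-3.27 ± 0.21), Cyp2u1 (-3.23 ± 0.47), Ildr2 (-3.18 ± 0.42) and Serpina7 (-3.09 ± 0.85). These sizes and their order are as fitted, and some rest on signals not well above background. No array was well above background in baseline B for Cdkn1a, in baseline B, baseline A and after acute T3 for Sult2a2 and Cxcl14, in both baselines for Ntrk2, after acute T3 for Akr1c18 and after chronic T3 for Cyp2u1. Only 1 array was so in either baseline for Akr1c18, in baseline B for Acnat2, in baseline B and after acute T3 for Spink1 and after chronic T3 for Serpina7.

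The baselines stood apart in several of these genes. Baseline B minus baseline A was 4.16 for Dbp, 4.45 for Rgs16, -2.65 for Cdkn1a and -3.25 for Tff3. Dbp, an output gene of the liver clock, read 7.76, 8.06 and 10.99 in baseline A, 12.20, 12.85 and 12.57 after acute T3 and 13.34, 12.73 and 13.21 in baseline B and 12.74, 12.66 and 12.69 after chronic T3. Rgs16 read 7.43, 6.28 and 8.48 in baseline A, 8.78, 8.71 and 9.88 after acute T3 and 11.62, 12.05 and 11.86 in baseline B and 9.21, 9.92 and 10.69 after chronic T3. Tff3 read 10.25, 11.13 and 10.20 in baseline A and 7.56, 10.28 and 7.0 after acute T3. Dbp was 3.61 ± 0.60 after acute T3 and -0.40 ± 0.60 after chronic T3, and Rgs16 was 1.73 ± 0.61 after acute and -1.90 ± 0.61 after chronic T3. After chronic T3 Rgs16 was called at an adjusted p of 0.0396 and Spink1 at 0.0296. Rgs16 was not called when chronic arrays 1 or 2 or baseline arrays 1, 2 or 3 were omitted (adjusted p 0.0697 to 0.136). Spink1 was not called when chronic arrays 1 or 2 or baseline arrays 1, 2 or 3 were omitted (adjusted p 0.0526 to 0.117). Leaving out 1 array moved the fitted log2 difference of Spink1 (1.81 without chronic array 1 and 3.32 without chronic array 3). The duration of T3 and the 2 subsets of animals cannot be told apart in these values, and the part of the subsets was not tested.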

How the results depend on the processing

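The count of genes called after chronic T3, 2052, was 888 under median scaling, 268 with a fold threshold of 1.5, 898 when fitted on the 6 arrays compared alone, 978 at an adjusted p under 0.01, 1437 with replicate 1 as the only chronic T3 array (the 2 dimmest left out, chosen after seeing the data) and 1376 to 1995 with each array left out in turn. Genes of any list that were called, each counted once, numbered 401. In the same order, leaving out the fit with replicate 1 as the only chronic T3 array, they numbered 247, 100, 222, 230 and 278 to 394. The count for the chronic minus acute effect, 641, was 234 under median scaling (85 higher and 149 lower, against 343 and 298), 1145 with array weights, 85 with the fold threshold, 167 at an adjusted p under 0.01, 903 without the 2 dimmest chronic T3 arrays and 311 to 916 with each array left out. The acute count, 190, was 295 with no background correction and from the authors' value table, 123 under median scaling (113 higher and 10 lower, against 132 and 58), 109 with no filter, 1737 with array weights, 288 with an intensity trend and robust moderation, 13 with the fold threshold, 93 from the arrays compared alone, 41 at an adjusted p under 0.01 and 48 to 164 with each array left out. Array weights thus raised the acute count most and the fold threshold lowered it most, and the cause of these shifts was not tested. With the replicate block, whose numbers do not pair the arrays, the counts were 1896 for chronic T3, 377 over the lists, 569 for the difference and 154 for acute T3. Median scaling moved the median of all genes from 0.0252 to 0.043. A slide block was not run, since no slide is named. Of the genes named above, the direction turned only in some that were not called: Apoa1 (0.01458 under median scaling and -0.1058 to 0.009934 with each array left out), Arg1 (-0.02784 under median scaling), Cyp2b10 (-0.7744 to 0.8071 with each array left out), Ass1 (-0.3452 to 0.06165 with each array left out), and, with replicate 1 as the only chronic T3 array, Ass1 (0.4048), Ttr (-0.05732), Cps1 (0.04306) and Idi1 (-0.07712). Brightness limits the dim genes: of 2052 called genes 190 were not well above background in baseline B and 67 not after chronic T3, and of 681 called genes with more than 1 detected probe 258 had all other probes called the same way and 347 had none.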
